A study of Mus musculus with 6 samples.

Results

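The complement genes described here encode proteins of the alternative and terminal pathways: C3, Cfb, Cfi, Hc, C6, C8a, C8b, C8g and C9, 9 genes in all. Members were the probe sets to which the platform annotation gives one of these symbols alone, and the rule used no measured value. The list of genes was, however, chosen with earlier results of these data known. The rule found 8 probe sets for 8 genes, of 45037 probe sets and 18193 genes tested. C3 has no probe set named in that way and was not analysed here. No filter on low values was applied, so all 8 measured members were tested.

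The arrays profiled total RNA of whole fetal mouse livers at E18.5 on Affymetrix 3' expression arrays, 1 liver per array. The 3 null livers were HNF4LoxP/LoxP AlfpCre, with both alleles of Hnf4 (the gene of the nuclear receptor HNF4 alpha) flanked by loxP sites, and their arrays are titled Null_61, Null_1191 and Null_1195. The 3 control livers were HNF4LoxP/+AlfpCre, with 1 flanked allele, and their arrays are titled Control_8, Control_1192 and Control_1193. All 6 livers therefore carried the Cre transgene and at least 1 flanked allele, and no liver without Cre was profiled. AlfpCre is driven by albumin and alpha-fetoprotein regulatory elements, which direct recombination to the hepatocyte lineage and not to the blood-forming, endothelial and mesenchymal cells that the livers also hold.

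Complement is a cascade of plasma proteins that marks and lyses microbes, and the hepatocyte is the main source of most of its soluble components. In the alternative pathway a fragment of C3 binds factor B, and the resulting protease cleaves more C3, while factor I breaks the fragment down. In the terminal pathway cleavage of C5 starts the assembly of C5b, C6, C7, C8 and many copies of C9 into a pore, the membrane attack complex.

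In the null livers 6 of the 8 measured members fell and 0 rose. Factor B, factor I and C5 were strongly reduced, as were all 3 chains of C8, and C6 and C9 did not pass the test. The median log2 change was -2.86 over the 8 members and 0.01 over all genes tested. Falls were called in 7.85% and rises in 1.56% of all genes by limma's test at an adjusted p under 0.05, after Benjamini-Hochberg adjustment over all probe sets. By an unadjusted p under 0.05 also, 6 members were lower and 0 higher. The share of all genes at an unadjusted p was not counted, so such counts, here and below, have no background beside them. A fall of at least 4-fold was called for 5 members, against 1.36% of all genes. In the 6 members that fell every null array read below every control array, which was so in 17.9% of all genes. In these whole livers fewer cells of a type and less RNA per cell cannot be told apart.

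Values given by array are the deposited probe-set intensities on a linear scale. A change is the difference null minus control of log2(intensity + 32), with values below 0 first set to 0, and its standard error (SE) comes from limma. The added 32 makes the changes of dim genes smaller. Fold changes are taken from these log2 changes and are left out where a group's mean lies under the highest array median, 99.5. Means carry the SD over 3 arrays. The number of arrays limits the precision, and the labels do not say whether the livers came from separate litters, so the p values reflect only how these 6 arrays vary.

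Hnf4a itself, the targeted gene, was reduced in part. Its 4 probe sets averaged between 62.2% and 73.7% of the control mean, and 2 of them fell (log2 changes of -0.69 with SE 0.17 and adjusted p = 0.0434, and of -0.55 with SE 0.14 and adjusted p = 0.0488, limma). The representing one, which read 1778, 1562 and 2778 in Null_61, Null_1191 and Null_1195 and 2607, 2817 and 2877 in Control_8, Control_1192 and Control_1193, overlapped between the groups (log2 change -0.48, SE 0.19, adjusted p = 0.194). The sources used here do not say whether these probe sets lie in the flanked part, so they check the labels only in part. Control_8 and Null_61 have title numbers outside the run of the other 4 arrays and differed from them in a control probe set for the 5' end of 18S ribosomal RNA, at 33.5 in Null_61 and 42.1 in Control_8 against 449 to 616 in the others. The labels do not call this a batch, and the changes of the members are given below within each number run.

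**Figure D1:**
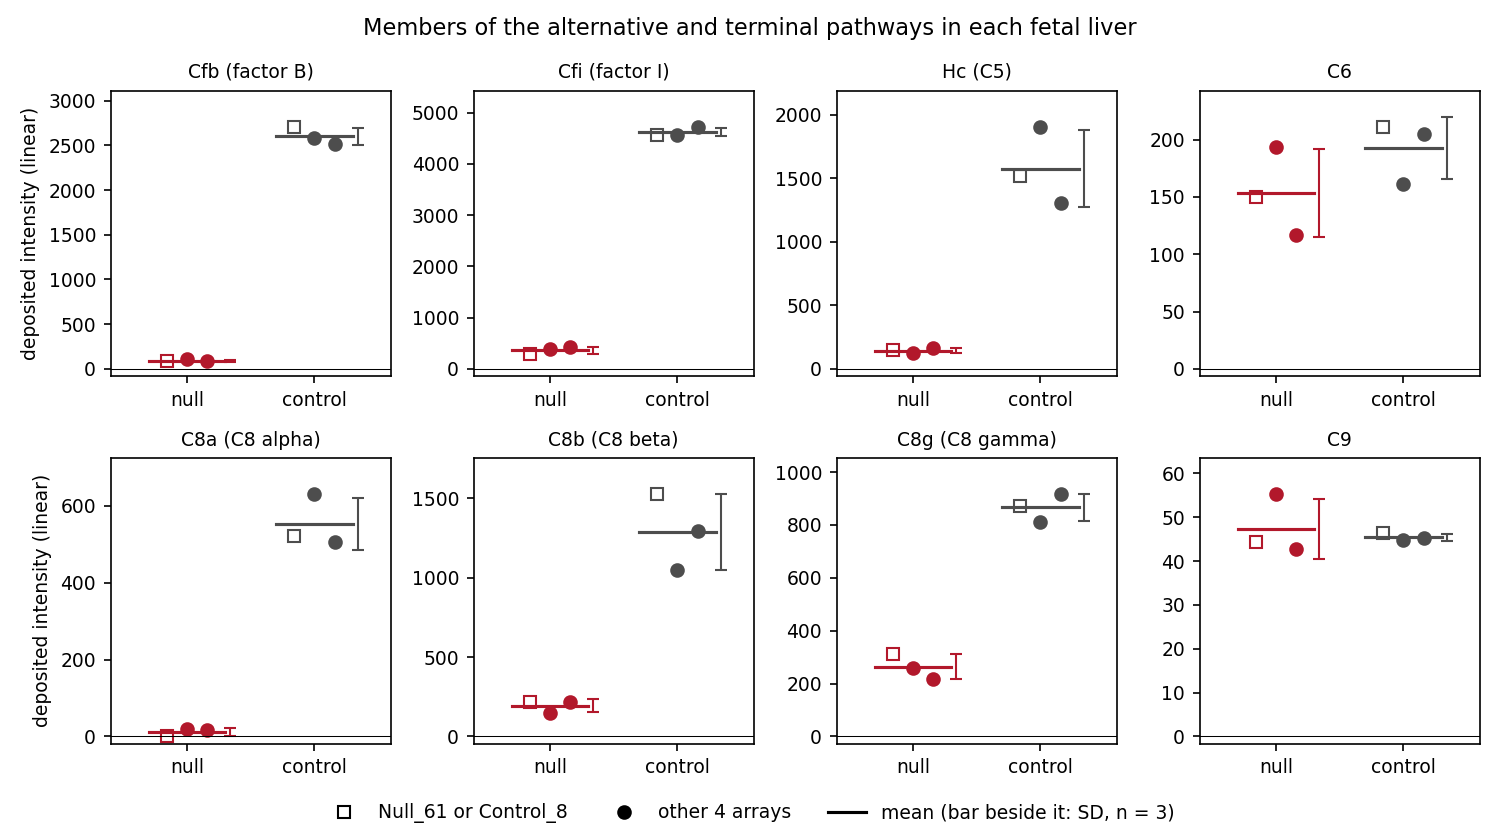
Deposited linear intensity (vertical axis) of the 8 measured members in the 3 null livers (left, red) and the 3 control livers (right, grey), with the mean as a line and the SD over 3 arrays as the bar beside it. Open squares are Null_61 and Control_8. The nulls lie below all controls for Cfb, Cfi, Hc, C8a, C8b and C8g, and the groups overlap for C6 and C9.

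Cfb encodes factor B, the zymogen of the protease in the C3 convertase of the alternative pathway. Its probe set 1417314_at read 87.0, 105 and 83.6 in Null_61, Null_1191 and Null_1195, against 2706.5, 2582 and 2511 in Control_8, Control_1192 and Control_1193. The null arrays lie close together near the median of all probe sets, and even the highest of them is far below the lowest control, which read 23.8 times as much. The means were 92.0 ± 11.7 in null livers and 2599.9 ± 98.8 in control livers, a log2 change of -4.41 (SE 0.12, 95% interval -4.67 to -4.15, adjusted p = 2.29e-07, limma). Ordered from the largest fall, the probe set holds place 40 among the 45037 tested.

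Cfi encodes factor I, the plasma protease that inactivates C3b and C4b with the help of cofactors. Its probe set 1418724_at read 286, 391 and 418 in the null arrays in the same order, against 4575, 4573 and 4726 in the control arrays. The controls hardly differed among themselves, and Null_61 was the lowest of the nulls. Null livers averaged 365 ± 69.4 and control livers 4625 ± 87.5, so that the nulls held 7.89% of the control intensity, an 11.9-fold fall (log2 change -3.57, SE 0.14, adjusted p = 1.17e-06, limma). The genes of the convertase protease and of the protease that inactivates C3b thus both fell.

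Hc encodes C5, whose cleavage releases the inflammatory peptide C5a and leaves C5b to start the pore. Probe set 1419407_at read 146, 125 and 161 in the null arrays, against 1521, 1904 and 1303 in the control arrays. All nulls were low and alike, and the controls spread more widely. The means were 144 ± 17.97 in null livers and 1576 ± 304 in control livers, a 9.06-fold fall (log2 change -3.18, SE 0.16, adjusted p = 4.78e-06, limma).

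C8 is built from 3 chains that come from separate genes: alpha and gamma are joined by a disulfide bond, and beta binds them without one. Alpha and beta belong to the family of pore-forming proteins that also holds C6, C7 and C9, whereas gamma is a lipocalin, a small barrel-shaped binding protein. All 3 genes fell.

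C8a, the alpha chain, read -0.144, 20.0 and 15.7 in Null_61, Null_1191 and Null_1195 on probe set 1428012_at, against 521, 630.1 and 506 in the control arrays. No null array rose above the dimmest part of the scale, and the value of Null_61 lay just below 0. Null livers averaged 11.9 ± 10.6 and control livers 552 ± 67.8 (log2 change -3.76, SE 0.19, adjusted p = 5.90e-06, limma). The size of this change is set by the added constant: with 1 in place of 32 it was -6.29 and with 100 it was -2.54, both called.

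C8b, the beta chain, read 219, 146 and 219 in the null arrays on probe set 1427472_a_at, against 1525, 1045 and 1292 in the control arrays. Control_1192 was the lowest control and still read 4.76 times the highest null. The means were 195 ± 42.5 in null livers and 1287 ± 240.0 in control livers, a 5.83-fold fall (log2 change -2.54, SE 0.18, adjusted p = 4.89e-05, limma).

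C8g, the gamma chain, read 312, 259 and 218 in the null arrays on probe set 1451625_a_at, against 871, 812 and 916 in the control arrays. The groups were well apart, but the nulls kept more of their signal than for the other chains, at 30.4% of the control mean. Null livers averaged 263 ± 47.2 and control livers 866 ± 52.4, a 3.07-fold fall (log2 change -1.62, SE 0.14, adjusted p = 0.000148, limma).

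The log2 changes of the 3 chains were thus -3.76, -2.54 and -1.62 for alpha, beta and gamma, and the test used here cannot decide whether they differ. For each pair of chains, the per-array differences of the null livers did not overlap those of the control livers. Alpha minus beta was -1.21 (SE 0.42), alpha minus gamma -2.14 (SE 0.36) and beta minus gamma -0.93 (SE 0.25). The SEs of gene pairs, here and below, come from the spread of the arrays within each group and not from limma. Among 5 gene pairs compared, each of these had an exact two-sided permutation p of 0.1 (0.125 adjusted over the 5), the smallest that 3 against 3 arrays can give, so the test could not have passed. The alpha values depend on the added constant, since its null arrays lie near 0: with a constant of 100 the 3 changes were -2.54, -2.23 and -1.42, and with 1 they were -6.29, -2.73 and -1.73.

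C6 and C9, the other pore-forming members, did not pass the test. C6, which binds C5b first, read 150.1, 193 and 117 in Null_61, Null_1191 and Null_1195 on probe set 1449308_at, against 211, 161 and 205 in the control arrays. Null_1191 lay inside the control range, so the groups overlapped. The means were 153 ± 38.2 in null livers and 193 ± 27.1 in control livers (log2 change -0.29, SE 0.17, adjusted p = 0.381, limma), and the 95% interval of the change ran from -0.68 to 0.11. That interval does not reach the fall of any of the 6 called members.

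C9, whose copies line the pore, was dim in both groups. Its probe set 1422815_at read 44.3, 55.2 and 42.7 in the null arrays, against 46.3, 44.7 and 45.4 in the control arrays. All 6 values lie under the array medians of 91.8 to 99.5, and no detection call was used, so whether the probe set saw its transcript at all at this age is not known. The means were 47.4 ± 6.83 in null livers and 45.5 ± 0.794 in control livers (log2 change 0.03, SE 0.13, 95% interval -0.26 to 0.32, adjusted p = 0.914, limma). A fall could not have been seen here if the signal was background.

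The change of C6 minus that of C9 was -0.32 (SE 0.15), with overlapping groups and an exact two-sided permutation p of 0.2. The smallest p this test can give is 0.1 and the signal of C9 may be background, so it cannot decide whether C6 and C9 differ. C6 and C9 lie on the same chromosome, with 8 protein-coding genes between them in the reference table, and C7 stands between them. C7 has no singly named probe set and was not analysed here. C8a and C8b are direct neighbours, with 0 protein-coding genes between them.

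**Figure D2:**
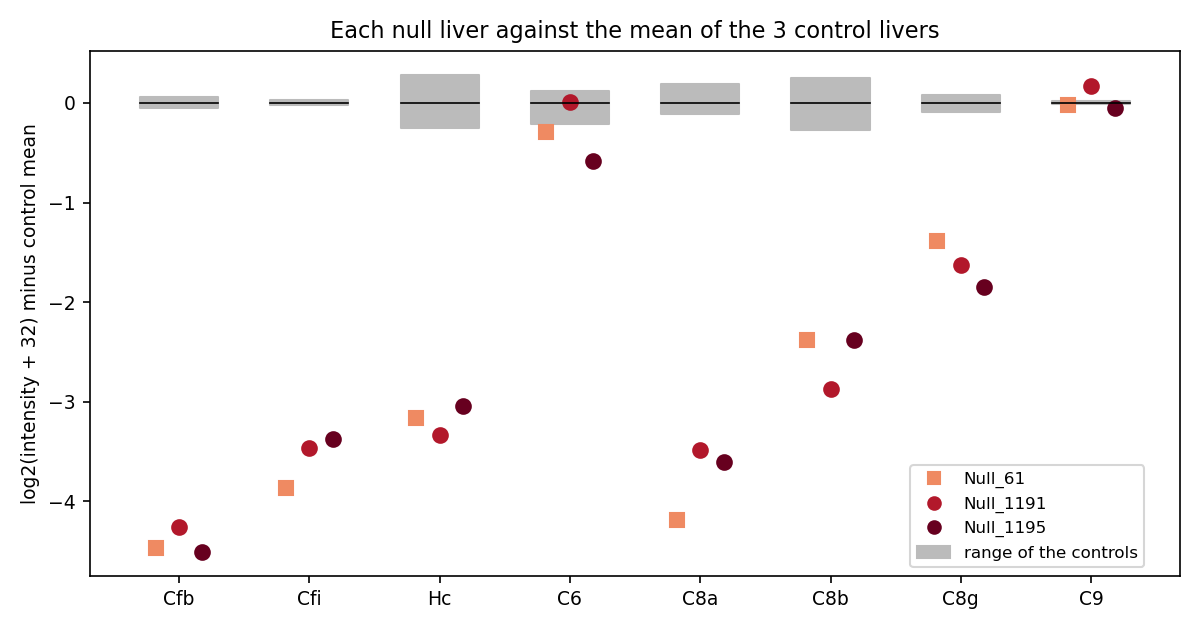
Log2(intensity + 32) of each null array minus the mean of the 3 controls (vertical axis) for the 8 members, with the range of the controls as a grey band. The 3 nulls lie together far below the band for the 6 called members, from -4.51 for Cfb in Null_1195 to -1.38 for C8g in Null_61, and at or near it for C6 and C9.

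The null livers were like one another in these genes. Against the control mean, Null_61, Null_1191 and Null_1195 had median log2 differences of -2.77, -3.11 and -2.71 over the 8 members. No null array was the lowest throughout: Null_61 was lowest for Cfi and C8a, Null_1191 for Hc and C8b, and Null_1195 for Cfb and C8g. Null_61 minus Control_8, the 2 arrays of one number run and not testable alone, had log2 differences of -4.52 for Cfb, -3.85 for Cfi, -3.13 for Hc, -4.11 for C8a, -2.63 for C8b and -1.39 for C8g. Within the other 4 arrays the changes were -4.35, -3.42, -3.21, -3.58, -2.50 and -1.73 for the same genes, and all 6 were called there (adjusted p from 7.70e-07 to 0.000121, limma). C6 was at -0.42 in Null_61 minus Control_8 and -0.22 in the 4 arrays, and C9 at -0.037 and 0.067. Embryo sex, read from Xist and Y-linked probe sets, was female in Null_1191, Null_1195 and Control_8 and male in Null_61, Control_1192 and Control_1193. Within each number run, sex and genotype therefore cannot be told apart. With sex as a term over all 6 arrays, the 6 members were still called, with log2 changes from -4.44 for Cfb to -1.56 for C8g.

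Promoter windows from RefSeq (GRCm38.p6), 250 bases before to 50 bases after a listed transcription start, were found for 6 of the 8 measured members, Hc, C6, C8a, C8b, C8g and C9. The windows below set the C8 genes, which fell, beside C6 and C9, which were not called. They run 5′ to 3′ along the gene's strand. Capitals mark, on either strand, the nuclear receptor half-site AGGTCA and any match with at most 1 mismatch to CAAAGTCCA, a motif bound by HNF4 and by few other nuclear receptors.
C8a, chr4:104876349-104876648, minus strand: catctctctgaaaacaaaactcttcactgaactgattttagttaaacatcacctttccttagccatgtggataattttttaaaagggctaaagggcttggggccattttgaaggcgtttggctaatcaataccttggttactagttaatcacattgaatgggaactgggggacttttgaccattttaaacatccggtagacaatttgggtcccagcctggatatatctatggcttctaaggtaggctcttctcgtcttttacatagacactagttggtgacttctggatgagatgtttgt
C8b, chr4:104766067-104766366, plus strand: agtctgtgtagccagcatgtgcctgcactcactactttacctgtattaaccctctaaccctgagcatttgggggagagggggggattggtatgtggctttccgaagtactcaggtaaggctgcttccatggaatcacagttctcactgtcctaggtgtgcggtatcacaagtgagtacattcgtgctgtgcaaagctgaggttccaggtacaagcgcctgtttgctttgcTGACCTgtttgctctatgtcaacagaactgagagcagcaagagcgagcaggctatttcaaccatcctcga
C8g, the more downstream of its 2 listed starts, chr2:25500457-25500756, minus strand: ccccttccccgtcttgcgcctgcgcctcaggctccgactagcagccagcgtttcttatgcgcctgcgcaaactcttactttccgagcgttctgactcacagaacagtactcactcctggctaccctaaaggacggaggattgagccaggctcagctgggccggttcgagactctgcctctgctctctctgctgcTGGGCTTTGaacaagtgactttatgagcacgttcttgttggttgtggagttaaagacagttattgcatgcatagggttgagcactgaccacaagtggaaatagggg
C6, chr15:4726960-4727259, plus strand: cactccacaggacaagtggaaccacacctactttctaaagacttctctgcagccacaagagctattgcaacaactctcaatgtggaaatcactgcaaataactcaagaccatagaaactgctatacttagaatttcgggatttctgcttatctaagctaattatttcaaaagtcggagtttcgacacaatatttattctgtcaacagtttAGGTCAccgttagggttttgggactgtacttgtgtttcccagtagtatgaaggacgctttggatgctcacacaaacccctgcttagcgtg
C9, chr15:6445096-6445395, plus strand: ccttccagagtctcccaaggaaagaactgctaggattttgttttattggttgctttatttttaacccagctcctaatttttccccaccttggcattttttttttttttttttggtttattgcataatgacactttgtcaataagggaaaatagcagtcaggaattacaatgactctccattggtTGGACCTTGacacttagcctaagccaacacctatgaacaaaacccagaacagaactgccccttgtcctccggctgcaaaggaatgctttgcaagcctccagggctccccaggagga

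Among the measured members each motif was found in 1 gene that fell and in 1 that did not pass, too few to relate a motif to a fall. For CAAAGTCCA with 1 mismatch the latter is C9, whose level lies under the array medians, so whether C9 fell is not known. The half-site was found in C8b, beginning 20 bases before the start on the opposite strand, and in C6, beginning 40 bases before it on the gene's strand. It is present in 16.3% of all 32851 windows. CAAAGTCCA itself was in none of the members' windows and in 0.475% of all windows. With 1 mismatch it was found in C8g (TGGGCTTTG, beginning 56 bases before the start) and in C9 (TGGACCTTG, beginning 66 bases before it), both on the opposite strand, and in 8.47% of all windows. C8a, Hc and the upstream start of C8g had no match to either. The 3 motifs searched also included the TATA box TATAAA, which among the measured members was found in Hc, 239 bases before the start, and in 13.6% of all windows. A match describes the letters only and does not show binding, and the absence of one says nothing on sites outside the window.

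The genes that work with these members were taken from a list of 43 other complement genes, of which 34 have a singly named probe set. Of these 12 fell and 0 rose by limma's test, and 22 did not pass, against falls in 7.85% and rises in 1.56% of all genes. By an unadjusted p under 0.05, 15 were lower and 4 higher. Cfd, C7, Cd59b, C5ar2, Cpb2, C4a and C4b are among those not analysed here. The median log2 change of the 34 measured genes was -0.01. A gene with several probe sets is represented by whichever of them averages highest on the log2 scale across all 6 arrays.

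Of the plasma proteins around the alternative and terminal pathways, Vtn, Clu and Cfhr2 fell, and Cfp and Cfhr3 did not pass. Vtn encodes vitronectin and Clu clusterin, which both keep forming terminal complexes off membranes. Vtn averaged 2872 ± 155 in null livers and 6692 ± 455 in control livers, a 2.31-fold fall (log2 change -1.21, SE 0.09, adjusted p = 6.59e-05), and its other probe set fell too. Clu averaged 542 ± 85.0 in null livers and 1529 ± 279 in control livers, a 2.71-fold fall (log2 change -1.44, SE 0.16, adjusted p = 0.000684), and all 4 of its probe sets fell. So the terminal components C5 and C8 and 2 of their fluid-phase inhibitors were lower in the same livers.

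Cfhr2 averaged 162 ± 31.6 in null livers and 381 ± 30.6 in control livers, a 2.14-fold fall (adjusted p = 0.00214, limma). Its other probe set, dim in both groups, did not pass (log2 change -0.79, adjusted p = 0.0912, limma). Genes of its family share sequence, so its signal may include related transcripts. Cfhr3, of the same family, was dim in both groups, at 25.5 ± 6.03 in null livers and 12.8 ± 5.06 in control livers (adjusted p = 0.263). Cfp encodes properdin, which stabilises the convertase and is made by leukocytes. It read 864, 409 and 380 in Null_61, Null_1191 and Null_1195, against 394, 261 and 271 in the controls. The groups overlapped (log2 change 0.70, SE 0.29, adjusted p = 0.206, limma). Its other probe set, dim in both groups, did not pass either (log2 change 0.11, adjusted p = 0.699, limma). With the number run as a block the adjusted p of Cfp was 0.00684 (limma). In the 4 arrays other than Null_61 and Control_8 it was 0.0394 at a log2 change of 0.52. In those 4 arrays the nulls read as female and the controls as male.

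Cpn1 and Cpn2 encode the 2 subunits of carboxypeptidase N, the plasma enzyme that trims C3a and C5a, and both fell. Cpn2, the carrier subunit, read 17.5, 26.1 and 27.5 in the null arrays, against 862, 970.2 and 935 in the control arrays. All nulls lay near the bottom of the scale (log2 change -4.10, SE 0.12, adjusted p = 4.36e-07, limma), so the size rests on the added constant, and with 1 or 100 in place of 32 it was -5.25 or -3.05, both called. Cpn1, the catalytic subunit, averaged 718 ± 181 in null livers and 1569 ± 272 in control livers, a 2.16-fold fall (adjusted p = 0.00871, limma). Its other probe set, dim in both groups, did not pass (log2 change -0.32, adjusted p = 0.285, limma).

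Membrane regulators and receptors, which act on cells rather than in plasma, gave no call. With falls in 7.85% and rises in 1.56% of all genes, no call in lists this short does not set them apart. Of 5 measured regulators (Cd55, Cd55b, Cd46, Cr1l and Cr2), 0 fell and 0 rose, and by an unadjusted p under 0.05 only Cr1l was lower. Cr1l, the rodent regulator Crry, averaged 632 ± 79.2 in null livers and 819 ± 96.3 in control livers (log2 change -0.36, SE 0.14, adjusted p = 0.172, limma). Cd59a, the membrane inhibitor of the pore, read 412 ± 34.1 in null livers and 445 ± 70.4 in control livers (log2 change -0.10, adjusted p = 0.737). Cd55b, Cd46, Cr2 and the receptors C3ar1 and Itgam averaged below the highest array median in both groups, so a fall may not have been visible there. Of 6 measured receptors (C3ar1, C5ar1, Vsig4, Itgam, Itgax and Itgb2), 0 were called in either direction and 0 passed an unadjusted p of 0.05. Itgb2, the shared beta chain of complement receptors 3 and 4, averaged 786 ± 48.3 in null livers and 781 ± 9.99 in control livers.

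**Figure D3:**
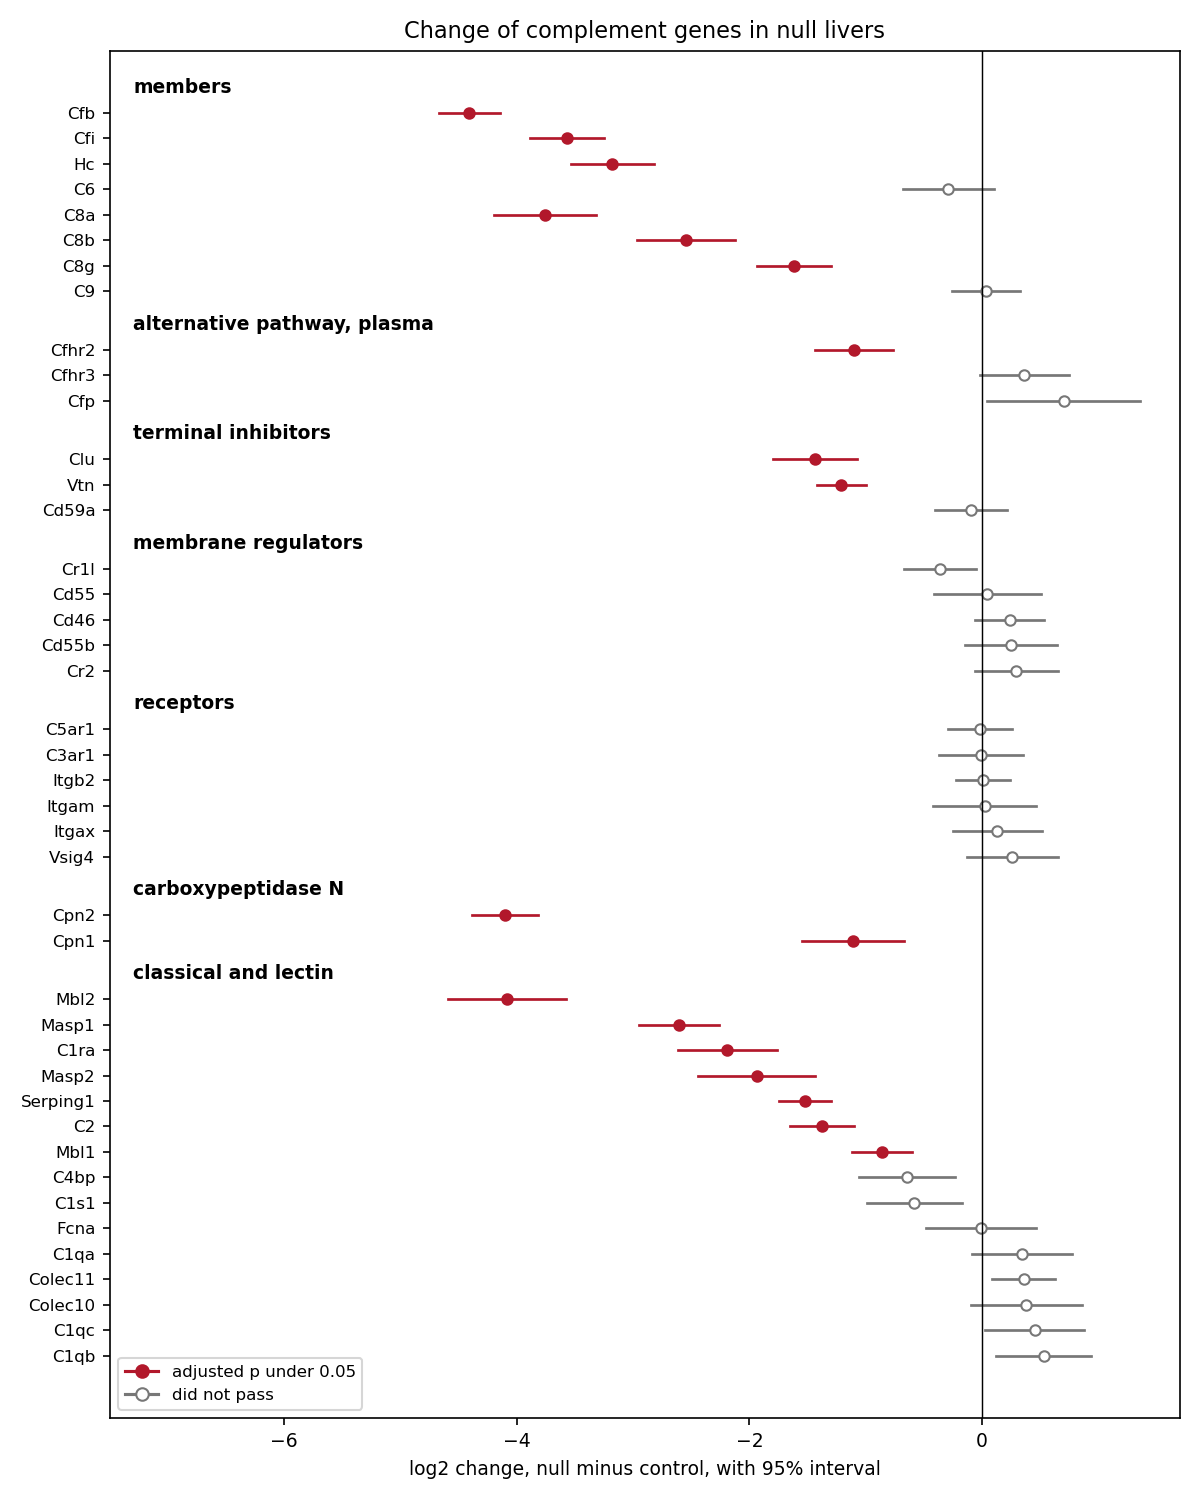
Log2 change, null minus control, with its 95% interval (horizontal axis) for the 8 members and 34 other complement genes grouped by role, each gene by its representing probe set. Filled red points passed an adjusted p under 0.05. All filled points, 6 members and 12 others, lie below 0, and no membrane regulator or receptor is filled.

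Of 15 measured genes of the classical and lectin pathways 7 fell and 0 rose, against falls in 7.85% and rises in 1.56% of all genes. By an unadjusted p under 0.05, 9 were lower and 3 higher. C2, the classical counterpart of factor B, is the direct neighbour of Cfb, with 0 protein-coding genes between them. Its representing probe set averaged 217 ± 14.9 in null livers and 616 ± 63.6 in control livers, a 2.60-fold fall (log2 change -1.38, SE 0.12, adjusted p = 0.000179), and its other 2 probe sets fell as well. The log2 change of Cfb minus that of C2 was -3.04 (SE 0.16), also at the smallest exact permutation p the design allows, 0.1, which cannot pass. Serping1, the C1 inhibitor, fell 2.88-fold, C1ra, a protease of the C1 complex, 4.56-fold, and Mbl1, a mannose-binding lectin, 1.81-fold. Mbl2, the other mannose-binding lectin, averaged 15.4 ± 7.42 in null livers and 792 ± 262 in control livers (log2 change -4.09, adjusted p = 8.78e-06), and here too the null values are near 0, with changes of -5.65 and -2.91 for an added constant of 1 and 100.

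Masp1 bears on the alternative pathway too, since 1 of its splice forms, MASP-3, activates factor D. Its representing probe set, 1419677_at, read 97.0, 106 and 140 in the null arrays, against 984, 808 and 779 in the control arrays (log2 change -2.61, SE 0.15, adjusted p = 1.24e-05). The other 4 probe sets were not called, with log2 changes from -0.10 to 0.36, and with the mean of all 5 the change was -0.37 (adjusted p = 0.0379). The sources used here do not say which splice form each probe set reads. Masp2, the protease that cleaves C2 and C4, averaged 58.4 ± 8.31 in null livers and 326 ± 123 in control livers (adjusted p = 0.000836), and its other probe set fell by more (log2 change -3.21 against -1.94).

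C1s1, the partner protease of C1ra, and C4bp, a cofactor of factor I, had log2 changes of -0.58 and -0.64 (adjusted p = 0.0996 and 0.0757, limma). Both passed with the number run as a block (adjusted p = 0.00716 and 0.0366, limma), and each passed in 4 of 17 alternatives. The lectin genes Fcna, Colec10 and Colec11 had log2 changes of -0.0073, 0.38 and 0.36 and did not pass. With quantile normalization Colec11 rose (log2 change 0.52, adjusted p = 0.0270).

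The C1q chains, products of macrophages, did not fall. C1qa read 1418, 834 and 872 in Null_61, Null_1191 and Null_1195, against 778, 828 and 768 in the controls (log2 change 0.34, SE 0.19, adjusted p = 0.344). Null_61 was the highest of all 6 arrays, and all nulls lay above all controls, though 834 is close to 828. C1qb and C1qc had log2 changes of 0.53 and 0.45 (adjusted p = 0.134 and 0.208). With the number run as a block both passed (adjusted p = 0.00602 and 0.0384).

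Markers of the cell types in the livers were set beside these counts. Of 10 measured hepatocyte markers 8 fell, against 7.85% of all genes. The list had a median of -0.82 on the log2 scale and summed intensities of 59912 to 66781 in null livers and 106022 to 107693 in control livers. Alb and Afp, for albumin and alpha-fetoprotein, were bright in every array and had log2 changes of 0.02 and -0.06 (adjusted p = 0.928 and 0.636), so the tissue label holds for both groups by these markers. Their signal is near the top of the scale, where a change is hard to see. Of 13 macrophage markers 3 rose, Adgre1, Clec4f and Timd4, against 1.56% of all genes. By an unadjusted p under 0.05, 8 were higher and 0 lower. Marco and Cd5l had the largest changes, 1.54 and 1.51, with all nulls above all controls. Their representing probe sets did not pass (adjusted p = 0.0998 and 0.0598, limma), while the other probe set of Marco rose (log2 change 1.35, adjusted p = 0.0465, limma). The list had a median of 0.53 and sums of 9256 to 14439 in null livers, highest in Null_61, and 7391 to 8407 in control livers. It includes C1qa, C1qb, C1qc and Vsig4, so it partly repeats complement genes given above. Of 8 endothelial markers 3 fell, with a median of -0.48 and sums of 1582 to 1872 in null livers and 2203 to 2550.4 in control livers. By an unadjusted p under 0.05, 5 of them were lower and 0 higher. Of 5 megakaryocyte markers 3 fell, with a median of -0.61 and sums of 3534 to 4043 in null livers and 4996 to 7009.9 in control livers. All 5 were lower by an unadjusted p under 0.05.

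Of 7 neutrophil markers, 6 erythroid markers and 8 mesenchymal markers 0 were called, with 0, 1 and 3 higher and 0 lower by an unadjusted p under 0.05. Their medians were -0.16, 0.13 and 0.37, and the sums were 26596 to 33016, 17317 to 17694 and 4839 to 7641.0 in null livers and 28953 to 32507, 15423 to 16288 and 4092 to 5169 in control livers. No marker was at 0 in all arrays of a group. The part of these shifts in the changes of the complement genes was not tested.

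**Figure D4:**
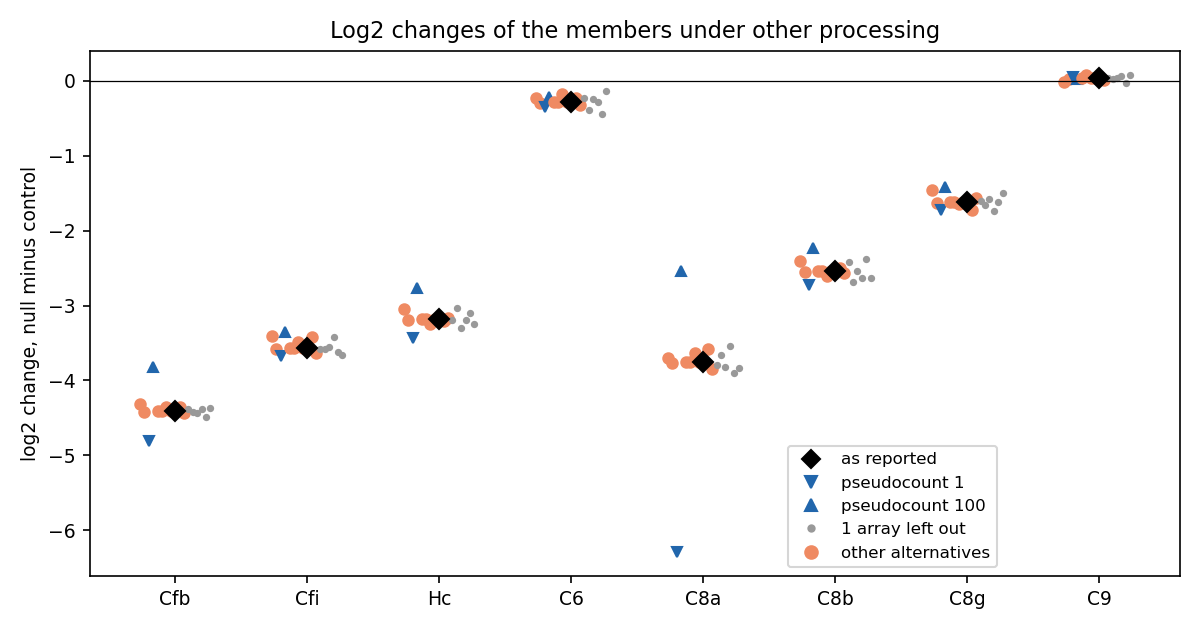
Log2 change, null minus control (vertical axis), of the 8 members as reported (diamonds), with another added constant (triangles), with 1 array left out (small dots) and under the other alternatives (circles). The 6 called members stay below -1.4 throughout, and only C8a moves far, to -6.29 and -2.54 with an added constant of 1 and 100.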

How the data were processed

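RNA was isolated on RNeasy columns and, after biotin labelling, hybridised as Affymetrix prescribes, per the labels' protocols. The deposited values are linear probe-set intensities, and this follows from their range: they reach from below 0 to 12608, and 0.908% to 1.34% of each array's values are negative, so some background had been subtracted. Software, summarisation and scaling between arrays: not given in the sources used here. Array medians were 91.8 to 99.5. Array number limits the precision.

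Intensities were floored at 0 and put on the scale log2(intensity + 32), with no further scaling, since array medians then differed by at most 0.09. Of 45101 probe sets 64 controls were left out and 45037 tested with limma 3.58.1 (R 4.3.3), lmFit and eBayes with an intensity trend, 3 null against 3 control arrays, no covariate, two-sided, threshold 0.05 after Benjamini-Hochberg adjustment. The platform annotation gave 34945 probe sets 1 symbol, 932 several and 9160 none. The reference table of GRCm38.p6 gave neighbouring genes, and RefSeq promoter windows of that build gave sequences. The fit was tested on simulated data.

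The members, the 43 other complement genes, the marker lists and the gene pairs set side by side were chosen with earlier results of these data known. All members, the targeted gene, called companions and, by role, others are named. Alternatives were quantile normalization, centred array medians, an added constant of 1 or 100, a filter that drops probe sets under the median level, no trend, array weights, the mean of a gene's probe sets, a change of at least 2-fold, the run of title numbers as a block, that run's 2 outer arrays left out, embryo sex as a term (read from Xist and Y-linked probe sets) and each array left out.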

Additional observations from a re-analysis of the deposited data

How the results depend on the processing

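The count of 6 members that fell was 6 under all 18 alternatives, and leaving out each array in turn gave 6 to 6. Some of these alternatives bear little on the count. The mean of a gene's probe sets left the members' log2 changes as they were, since each has 1 probe set. The 2-fold threshold reused the reported fit, where the smallest called fall, of C8g, was already 3.07-fold. The 6 called members kept direction and call throughout, with the highest adjusted p, 0.00830, for C8a with an added constant of 1, and 0.00185 for C8g without Control_1193. C6 stayed uncalled in all 18, with log2 changes from -0.44 to -0.14. C9 was uncalled in the 17 that could test it, since the filter on the median level removed it, and its change had the opposite sign with quantile normalization (-0.020) and without Null_1191 (-0.037). Leaving out each array gave C9 changes from -0.037 to 0.075. The cause was not tested, and both values are far inside its 95% interval. Among the other complement genes the count of falls, 12, ranged from 11, where at least 2-fold was required and Mbl1 dropped out, to 14, and was 12 to 14 with 1 array left out. Quantile normalization put the median log2 change of all genes at 0.06, against 0.01 as reported, and gave 1196 falls and 617 rises among them, against 1428 and 283 as reported. With 1 array left out, all-gene counts ran from 906 falls and 98 rises without Control_1192 to 1689 and 558 without Null_61. No paired analysis was possible because the labels give neither litters nor any other pairing of null with control livers. The run of numbers served only as a block, with which 6 members and 14 other complement genes fell. The signal over background limits C9, whose level lies under the array medians, and the sizes of the falls of C8a, Cpn2 and Mbl2, which rest on null values near 0. Nothing in these arrays measures complement protein or activity.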
